A study of Homo sapiens with 14 samples.

Results

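The keratin genes encode the epithelial intermediate filament proteins, and their transcripts were followed here in Hep3B cells with inducible TAp73β. Members were the genes whose symbol in the array's probe annotation is KRT with a number and at most 1 letter from A to C, which left out keratin-associated proteins and pseudogenes. This rule gave 44 of the 19775 genes with at least 1 probe set, and they held 56 probe sets. For each gene the brightest probe set, by its mean on the 14 arrays, was used. The Dox+ arrays entered this mean, so a probe set higher in Dox+ cells could be favoured. For 35 of the 44 keratins there was 1 probe set and no choice to make. RefSeq lists 55 protein-coding keratin symbols, and the 11 without a probe set naming them alone were not analysed here. These were KRT6A, KRT6B, KRT6C, KRT17, KRT26, KRT28, KRT34, KRT39, KRT81, KRT82 and KRT86.

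Hep3B is a p53-deficient hepatocellular carcinoma line, and the Hep3BTAp73β derivative carries TAp73β, the transactivating β isoform of p73, behind a tetracycline-controlled promoter together with the Tet repressor. Blasticidin- and G418-resistant colonies were picked, so the line is clone-derived. Dox+ cells received doxycycline at 1 µg/mL for 12, 24 or 48 h, and Dox− cells were untreated and harvested at the same times. Both carried the transgene and the repressor, so TAp73β and doxycycline itself cannot be told apart in these arrays. The 12 h and 24 h times had 2 Dox+ and 2 Dox− arrays each and the 48 h time 3 of either kind, each described as a biological replicate and hybridised to 1-colour Affymetrix U133 Plus 2.0 arrays.

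Keratins work as obligate heteropolymers, in which an acidic type I chain pairs with a basic to neutral type II chain. Their expression marks the kind of epithelium: KRT8 and KRT18 make up the filaments of hepatocytes and other simple epithelia, KRT7 and KRT19 are added in bile ducts, and KRT5 with KRT14 or KRT15 fills the basal layer of stratified epithelia. Suprabasal keratins replace the basal pair as keratinocytes differentiate, and a further set is restricted to the hair follicle. Members of the p53 family, p63 above all, are known regulators of the basal keratin genes.

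The start of 3 of these genes is shown, because KRT5 and KRT71 were the 2 of the 6 genes higher in Dox+ cells at 48 h with a window in RefSeq's promoter table (GRCh38.p14), and KRT8 had the most negative difference of any keratin at 12 h. Each window runs 5′ to 3′ on the gene's strand from 250 bases before the annotated start to 50 bases after it, and capitals mark matches to a p53 family half-site (the consensus of 10 bases of this family, searched on both strands) or to TATAAA. KRT5 lies at chr12:52520345-52520644, KRT71 at chr12:52553096-52553395 and KRT8 at chr12:52926420-52926719, all 3 on the minus strand.
KRT5: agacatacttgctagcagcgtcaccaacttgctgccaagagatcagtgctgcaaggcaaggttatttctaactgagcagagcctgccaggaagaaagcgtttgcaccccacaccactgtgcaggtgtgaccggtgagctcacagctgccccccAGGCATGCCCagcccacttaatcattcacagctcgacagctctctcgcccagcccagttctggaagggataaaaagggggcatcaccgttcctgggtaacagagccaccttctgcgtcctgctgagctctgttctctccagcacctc
KRT71: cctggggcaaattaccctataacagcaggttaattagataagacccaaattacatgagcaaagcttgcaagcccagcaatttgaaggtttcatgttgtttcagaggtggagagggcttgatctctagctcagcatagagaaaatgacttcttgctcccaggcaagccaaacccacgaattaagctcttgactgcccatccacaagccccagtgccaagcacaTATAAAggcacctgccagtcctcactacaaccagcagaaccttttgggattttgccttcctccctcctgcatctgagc
KRT8: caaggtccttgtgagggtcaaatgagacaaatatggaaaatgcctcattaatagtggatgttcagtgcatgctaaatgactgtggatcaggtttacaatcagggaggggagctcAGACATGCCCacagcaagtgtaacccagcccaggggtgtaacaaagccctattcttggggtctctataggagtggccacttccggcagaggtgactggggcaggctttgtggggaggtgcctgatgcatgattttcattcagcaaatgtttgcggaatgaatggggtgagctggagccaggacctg
The half-site AGGCATGCCC in the KRT5 window began 97 bases before the start, and AGACATGCCC in the KRT8 window began 136 bases before it. KRT71 had no half-site and a TATAAA 28 bases before its start. A match is a description of the letters and not evidence of binding.

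The table held 33 windows for 29 of the 44 keratin genes. A half-site was present in 8 of these 33 windows (24.2%), against 6.63% of all 35116 windows, and these were KRT2, KRT5, KRT8, KRT10, KRT20, KRT24, KRT25 and KRT76. Of these 8 genes, KRT5 was the 1 that passed the test at 48 h. TATAAA was found in 16 of the 33 keratin windows (48.5%), against 11.5% of all windows. GGGCGG, the core of a GC box, was found in 6 of 33 (18.2%), against 45% of all. TGANTCA, the AP-1 consensus, was in 0 of 33, against 7.71% of all. All 4 motifs were searched on both strands, and the windows of 1 gene can overlap.

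TP73 was higher in Dox+ cells at every time, by 1.89, 2.27 and 1.96 on the log2 scale at 12, 24 and 48 h, (adjusted p between 1.057e-07 and 0.00271, limma), and its Dox+ and Dox− arrays did not overlap. Array pairs within a group correlated between 0.9927 and 0.9987 (Pearson's r across the 19775 genes, 1 probe set each). Of the hepatocyte markers, 10 were measured and all were brighter than the median gene, and ALB averaged 14.37 ± 0.0583 in Dox+ cells and 14.38 ± 0.0456 in Dox− cells at 48 h (log2 level, SD, n = 3 each). Of the 4 ALB probe sets, a dimmer one (mean 8.48) was lower in Dox+ cells by 0.90 (adjusted p = 4.666e-04, limma). The others, with means of 13.11 and 7.10, had −0.08 and 0.04 and did not pass, nor did the brightest. One ALB probe set thus disagreed with the rest. The defining leukocyte marker PTPRC was dim, at a mean of 3.66 over all arrays, as were the endothelial markers CDH5 (3.74) and KDR (3.75). Other members of these lists were brighter than the median gene, LYZ at 11.58 and CD14 at 6.57 among leukocyte markers and PECAM1 at 6.63 among endothelial ones. By limma's adjusted p, 11.3% of all genes were higher and 12.9% lower in Dox+ cells at 48 h. Of genes brighter than the median gene, 17.5% were higher and 22.8% lower. Beside these shares, 1 of the 10 hepatocyte markers was higher and 6 were lower. Of 6 fibroblast and stellate markers 3 were higher (LUM by 1.23, ACTA2 by 0.97 and DCN by 0.20 log2). COL1A1 (−0.04), COL1A2 (−0.10) and PDGFRB (−0.21) lay below 0 and did not pass. A dimmer COL1A1 probe set was higher by 0.92 (adjusted p = 0.00234, limma), and dimmer ACTA2 probe sets had −0.05 and −0.06 and did not pass. The summed unlogged level of the 6 was 1238 to 1485 in Dox+ arrays and 719 to 819 in Dox− arrays. LUM, the brightest of the 6 (mean 9.28), weighed most in this sum. Of 5 leukocyte markers 1 was higher (ITGAM, 2.21, on a probe set that its high Dox+ arrays made the brightest, while the other had 0.15 and did not pass) and 1 lower (LYZ, −0.92), and of 7 cholangiocyte markers 1 was higher (KRT19 itself) and 1 lower (SOX9). The part of these markers in the keratin values was not tested, and fewer expressing cells cannot be told apart from less RNA per cell in any of these bulk samples.

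Values were log2 RMA levels, in which 1 unit is a doubling. A probe set's brightness depends on its own probes, so no gene's level was set against another's as an amount of transcript. The median gene's mean of 6.49 over the 14 arrays served as a coarse mark between bright and dim probe sets. Of the keratins, 7 were brighter than this (KRT7, KRT8, KRT10, KRT18, KRT19, KRT23 and KRT80) and 37 were at or under it, which included all measured hair and inner root sheath keratins. No detection calls were among the data, so a dim keratin could not be called absent.

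At 48 h, 6 keratins rose in Dox+ cells and none fell, where both words compare Dox+ with Dox− cells of the same time. They were KRT19 and KRT23 of simple epithelia, KRT15 and KRT5 of the basal layer, KRT71 of the inner root sheath, and KRT80. KRT80 is found in many epithelia and was only classed here with the simple epithelial keratins. The differences ranged between 0.30 and 0.98 on the log2 scale, and the remaining 38 lay between −0.24 and 0.22. Here and below a gene was called where limma's moderated test within 1 time point, adjusted by Benjamini-Hochberg over all 19775 genes, gave an adjusted p under 0.05. The 6 of 44 amount to 13.6%, against 11.3% of all genes called higher, so the share of keratins that rose was close to the background. The 0 of 44 called lower stand against 12.9% of all genes. None of the 44 reached 2-fold in either direction, where 1.52% of all genes were 2-fold higher and 0.238% 2-fold lower with no test applied. At an unadjusted p under 0.05, 12 keratins (27.3%) passed at 48 h in either direction, against 34.2% of all genes.

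The background differed with brightness. Of the genes brighter than the median gene, 17.5% were called higher and 22.8% lower at 48 h, and among the 7 bright keratins 3 were higher and 0 lower. Of the dimmer genes, 5.07% were called higher and 2.93% lower, and among the 37 dim keratins 3 were higher and 0 lower. After quantile normalization of the deposited values, the same 6 keratins were higher and 1 (KRT72) was lower.

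**Figure D1:**
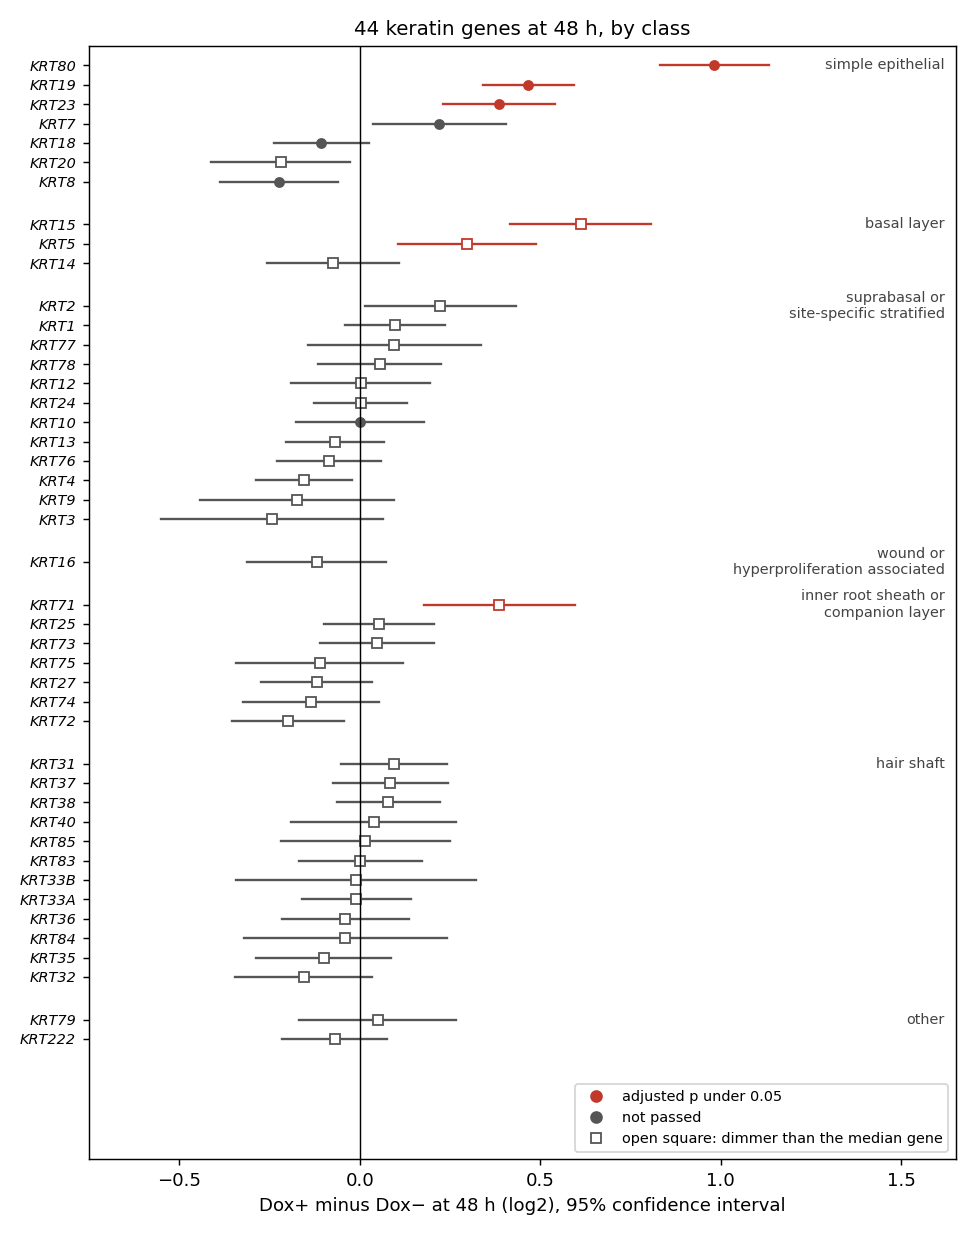
Dox+ minus Dox− at 48 h on the log2 scale for the 44 keratin genes, grouped by class, with bars for the 95% confidence interval of limma's fit (n = 3 arrays each). Red symbols passed the adjusted threshold, filled circles are genes brighter than the median gene and open squares are dimmer ones. The 6 red symbols, led by KRT80 at 0.98, all lie above 0.

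KRT80, a type II keratin found in many epithelia and linked to advanced differentiation, had the largest difference of the family at 48 h. Its log2 levels at 48 h were 9.00, 9.01 and 9.10 in Dox+ cells, against 7.96, 8.14 and 8.06 in Dox− cells. All 3 Dox+ arrays lay above all 3 Dox− arrays, with a gap many times the spread within either group. The difference was 0.98 ± 0.0672 (SE), or 1.98-fold, with an adjusted p of 1.101e-05 by limma. At 24 h it had 9.29 and 9.60 in Dox+ cells, against 8.76 and 8.83 in Dox− cells, and at 12 h 9.25 and 9.35, against 8.16 and 8.53. The groups were again apart at both times. KRT80 rose at 24 h by 0.65 (adjusted p = 0.0358, limma), whereas at 12 h the difference of 0.96 did not pass (adjusted p = 0.0697, limma, n = 2 each). The Dox− level itself differed between times, averaging 8.34 at 12 h, 8.80 at 24 h and 8.05 at 48 h.

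KRT19, a type I keratin of bile duct cells and a marker of progenitor features in liver tumours, was higher in Dox+ cells at 48 h. It had 11.22, 11.23 and 11.23 in Dox+ cells, against 10.72, 10.80 and 10.77 in Dox− cells, and the groups did not overlap. The difference was 0.47 ± 0.0557 (SE), or 1.38-fold (adjusted p = 3.433e-04, limma). At 24 h the order was the other way round, with 10.82 and 10.92 in Dox+ cells, against 11.03 and 11.02 in Dox− cells, a difference of −0.16 that did not pass (adjusted p = 0.550). At 12 h the arrays overlapped, with 10.54 and 10.97 in Dox+ cells, against 10.72 and 10.59 in Dox− cells. A second KRT19 probe set with a mean of 4.13 had a difference of −0.02 at 48 h and did not pass, so the rise rests on the brighter probe set.

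KRT23, a type I keratin of digestive tract epithelia, also rose at 48 h. Its levels were 12.94, 12.95 and 13.13 in Dox+ cells, against 12.58, 12.65 and 12.63 in Dox− cells. The groups were apart, and 1 Dox+ array stood above the other two. The difference was 0.39 ± 0.0686 (SE), or 1.31-fold (adjusted p = 0.00313, limma). At 12 and 24 h the Dox+ and Dox− arrays overlapped, and the differences were 0.15 and 0.03. The KRT23 probe set is of a type whose probes can match more than 1 transcript.

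The hepatocyte pair KRT8 and KRT18 had values below 0 at each time, and none of them passed the test. KRT8, the type II partner, had 11.65, 11.65 and 11.47 in Dox+ cells at 48 h, against 11.77, 11.90 and 11.77 in Dox− cells. Every Dox+ array lay below every Dox− array, and the difference was −0.22 (95% confidence interval −0.39 to −0.06, adjusted p = 0.0514, limma). At 24 h KRT8 had 11.64 and 11.55 in Dox+ cells, against 12.02 and 12.28 in Dox− cells (difference −0.55, adjusted p = 0.0556, limma). At 12 h it had 10.64 and 11.36 in Dox+ cells, against 11.57 and 11.89 in Dox− cells. The Dox+ arrays were again below, but they differed from each other by nearly as much as from the Dox− arrays, and the difference of −0.73 had an adjusted p of 0.285 by limma.

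KRT18, the type I partner, had 12.58 and 12.54 in Dox+ cells at 24 h, against 13.06 and 13.07 in Dox− cells. The groups were clearly apart, and the difference of −0.51 lay just outside the threshold (adjusted p = 0.0501, limma). At 48 h it had 12.73, 12.79 and 12.83 in Dox+ cells, against 12.90, 12.85 and 12.90 in Dox− cells, a difference of −0.11 (95% confidence interval −0.24 to 0.02). At 12 h the arrays overlapped, with 12.87 and 12.83 in Dox+ cells, against 13.07 and 12.83 in Dox− cells. With limma's trend and robust options, both KRT8 and KRT18 were called lower at 24 and 48 h, with adjusted p between 2.878e-05 and 0.0326, where these options called 6.44% of all genes lower at 24 h and 15.3% at 48 h. Both probe sets are of the cross-hybridising type, and KRT8 and KRT18 have many processed pseudogenes.

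KRT7, the type II keratin of ducts and glands, had 7.17, 7.24 and 7.25 in Dox+ cells at 48 h, against 6.85, 7.16 and 7.00 in Dox− cells. The Dox+ arrays were above, by 0.22 (95% confidence interval 0.04 to 0.40), and the test was not passed (adjusted p = 0.0846, limma). Without Dox− replicate 2 at 48 h the difference was 0.30 with an adjusted p of 0.0249. KRT7 also passed at 48 h when dim genes were left out. At 12 and 24 h KRT7 had differences of 0.19 and 0.14, and its groups overlapped at both times. Its 3 other probe sets had differences between −0.05 and 0.03 at 48 h. KRT20, the keratin of intestinal and urothelial surface cells, was dim (mean 3.73) and had a difference of −0.22 at 48 h (adjusted p = 0.102, limma).

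**Figure D2:**
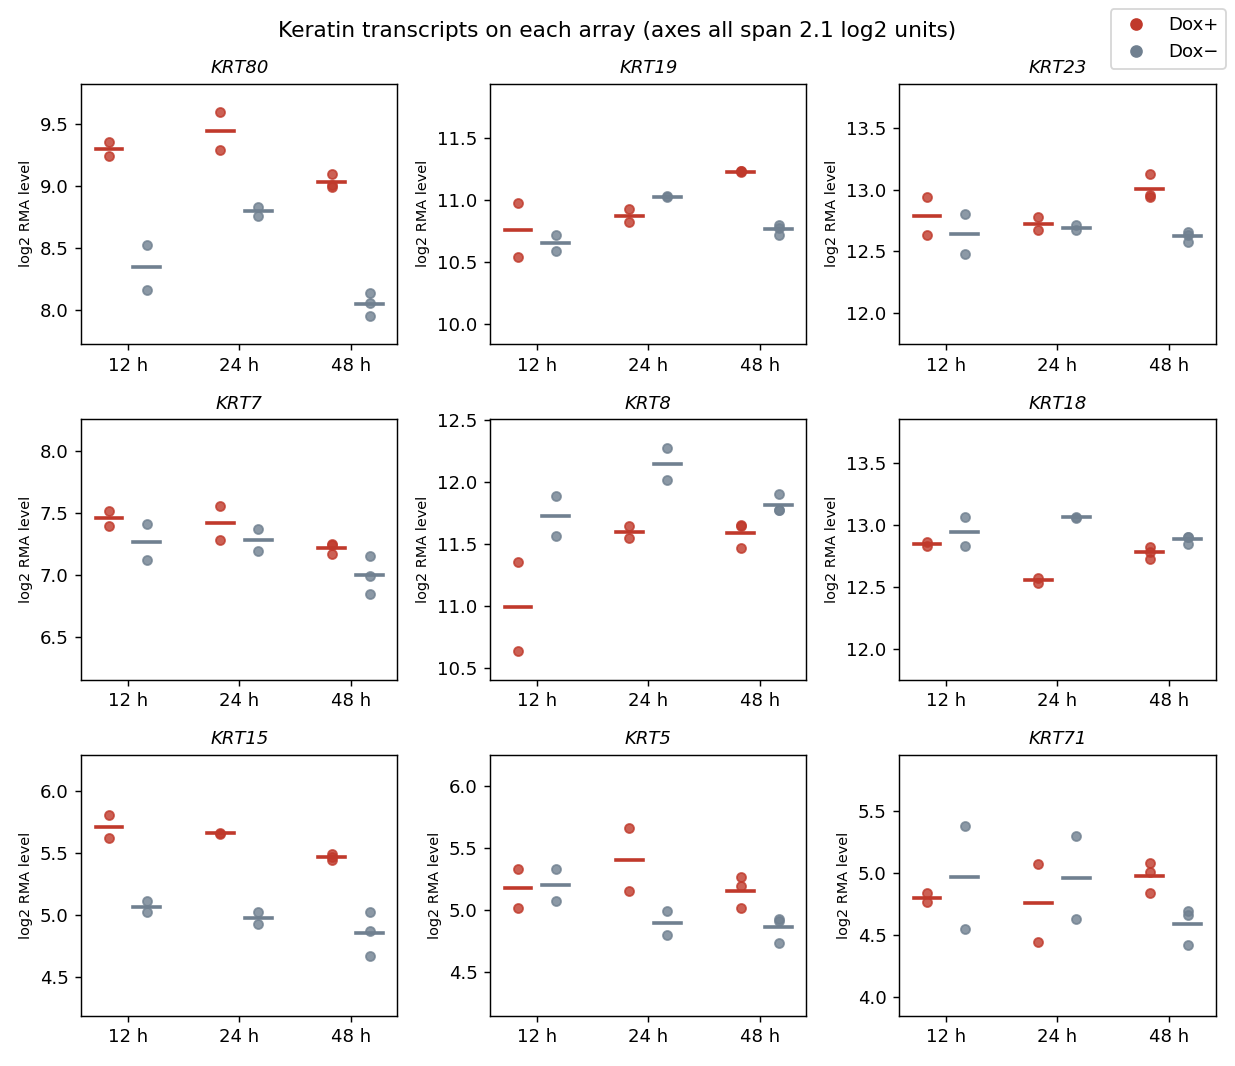
Log2 RMA level of 9 keratin genes on each array at 12, 24 and 48 h, with Dox+ in red on the left of each time and Dox− in grey on the right, points for arrays and lines for means (n = 2, 2 and 3 per group). KRT80 and KRT15 have Dox+ arrays above Dox− arrays at all 3 times, KRT19, KRT23, KRT71 and KRT7 are apart in that direction at 48 h alone, and KRT8 has Dox+ arrays below at all 3 times.

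Of the 3 basal keratins, KRT15 and KRT5 rose at 48 h and KRT14 did not pass. KRT15, a type I keratin of basal keratinocytes and hair follicle stem cells, had 5.49, 5.44 and 5.47 in Dox+ cells at 48 h, against 4.87, 4.67 and 5.02 in Dox− cells. It was apart at the earlier times as well. At 24 h it had 5.65 and 5.66 in Dox+ cells, against 4.92 and 5.02 in Dox− cells, and at 12 h 5.80 and 5.62, against 5.11 and 5.02. The 3 differences were of like size, 0.64, 0.68 and 0.61 at 12, 24 and 48 h. They passed at 24 h (adjusted p = 0.0170, limma) and at 48 h (adjusted p = 8.857e-04, limma), and not at 12 h (adjusted p = 0.144, limma). The rise at 48 h was 1.53-fold, on a probe set dimmer than the median gene in both groups.

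KRT5, the type II keratin of the basal layer, had 5.19, 5.27 and 5.01 in Dox+ cells at 48 h, against 4.92, 4.74 and 4.93 in Dox− cells. The groups did not overlap, and the lowest Dox+ array was close to the highest Dox− array. The difference of 0.30, or 1.23-fold, passed with an adjusted p of 0.0308 by limma. This call was lost when any of 4 arrays was left out, with adjusted p of 0.0903 and 0.107 without Dox+ replicate 1 or 2, and 0.0530 and 0.104 without Dox− replicate 1 or 2. At 24 h KRT5 had 5.66 and 5.15 in Dox+ cells, against 4.80 and 5.00 in Dox− cells, a difference of 0.51 that did not pass (adjusted p = 0.149, limma), though it passed without Dox+ replicate 2 (difference 0.77, adjusted p = 0.0259). At 12 h its arrays overlapped and the difference was −0.03. Its Dox− mean was 5.20, 4.90 and 4.86 at 12, 24 and 48 h, and its Dox+ mean 5.18, 5.41 and 5.16. KRT14, the usual type I partner of KRT5, had a mean of 4.05 and a difference of −0.07 at 48 h (95% confidence interval −0.26 to 0.11). KRT14 and KRT16 belong to a near-identical group, so their probe sets may share signal.

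Among the 7 inner root sheath and companion layer keratins, KRT71 was called higher at 48 h and the other six lay between −0.20 and 0.05. KRT71, a type II keratin of the inner root sheath, had 5.01, 4.84 and 5.08 in Dox+ cells, against 4.66, 4.41 and 4.69 in Dox− cells. The groups were apart, by 0.39 or 1.31-fold (adjusted p = 0.0143, limma), and the call was lost without Dox+ replicate 3 (adjusted p = 0.0515). At 24 h it had 5.07 and 4.44 in Dox+ cells, against 4.63 and 5.29 in Dox− cells, and at 12 h 4.83 and 4.76, against 4.55 and 5.38. The arrays overlapped at both times, and the Dox− arrays of 1 time differed by more than the groups did at 48 h. Its Dox− mean was 4.96, 4.96 and 4.59 at 12, 24 and 48 h, and its Dox+ mean 4.80, 4.75 and 4.97. The Dox+ mean at 48 h was thus close to the earlier Dox− means. KRT73, of the same layer, had a difference of 0.05 on its brighter probe set and of −0.25 on its second (adjusted p = 0.0435 over all probe sets, limma), so its probe sets disagreed.

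No measured keratin of the remaining classes passed at any time. The class of wounded or hyperproliferative epidermis held 1 measured gene, KRT16, and KRT6A, KRT6B, KRT6C and KRT17 were not analysed. The 12 suprabasal or site-specific keratins, which include the epidermal KRT1, KRT2 and KRT10, the corneal KRT3 and KRT12 and the mucosal KRT4 and KRT13, ranged between −0.24 and 0.22 at 48 h. KRT10 was the bright one of these, with 11.28, 11.25 and 11.50 in Dox+ cells at 48 h, against 11.27, 11.36 and 11.39 in Dox− cells (95% confidence interval of the difference −0.18 to 0.18). The 12 hair shaft keratins lay between −0.16 and 0.09, and KRT16, a keratin of wounded and hyperproliferative epidermis, had −0.12 (95% confidence interval −0.31 to 0.07). KRT79 and KRT222, placed in no class, had 0.05 and −0.07. By chain type, 3 of 20 type II and 3 of 24 type I genes rose, with medians of 0.03 and −0.01 beside −0.02 over all genes.

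At 24 h 2 keratins were called higher (KRT80 and KRT15), or 4.55% against 3.01% of all genes, and none lower, against 2.81% of all genes. Both calls rested on 2 arrays a group, and 5 keratins (11.4%) had an unadjusted p under 0.05, against 20.2% of all genes. KRT80 did not pass without Dox− replicate 1 (adjusted p = 0.121), Dox− replicate 2 (0.0833) or Dox+ replicate 2 (0.180), and KRT15 did not pass without Dox− replicate 1 (0.0677), Dox+ replicate 1 (0.0555) or Dox+ replicate 2 (0.0511). At 12 h limma called none of the 44 in either direction, beside 0.647% of all genes called higher and 0.0202% lower, and 6 keratins (13.6%) had an unadjusted p under 0.05, against 13.7% of all genes. When all 14 arrays shared 1 fit, KRT15 and KRT80 were higher and KRT8, KRT35, KRT36 and KRT73 lower at 12 h, and that fit called 5.26% of all genes higher and 3.25% lower.

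Most keratins had values a little below 0 at 12 h. The count was 35 of 44, with a median of −0.12, against −0.04 over all genes, and in 17 keratins (38.6%) every Dox+ array lay below every Dox− array, against 27.6% of all genes. The median level of the whole array was also lower in the 12 h Dox+ arrays (5.22 and 5.20) than in the 12 h Dox− arrays (5.26 and 5.28). After quantile normalization, 25 of 44 keratins were below 0 and their median was −0.04, against −0.02 for all genes. At 24 h 22 of 44 were below 0, with a median of 0.01, and at 48 h 21 of 44, with a median of 0.00.

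At the later times, the share of keratins with all Dox+ arrays above all Dox− arrays was close to that of all genes, and the share with all Dox+ arrays below was smaller. Dox+ arrays all lay above in 12 keratins at 24 h (27.3%, against 26.6% of all genes) and in 7 at 48 h (15.9%, against 17.4%), and they all lay below in 5 at each of these times (11.4%, against 23.7% of all genes at 24 h and 21.9% at 48 h). At 12 h 2 keratins, KRT80 and KRT15, had all Dox+ arrays above (4.55%, against 19.3% of all genes). No keratin was 2-fold higher or lower at 12 h (0.839% and 0.131% of all genes) or at 24 h (1.11% and 0.283%).

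**Figure D3:**
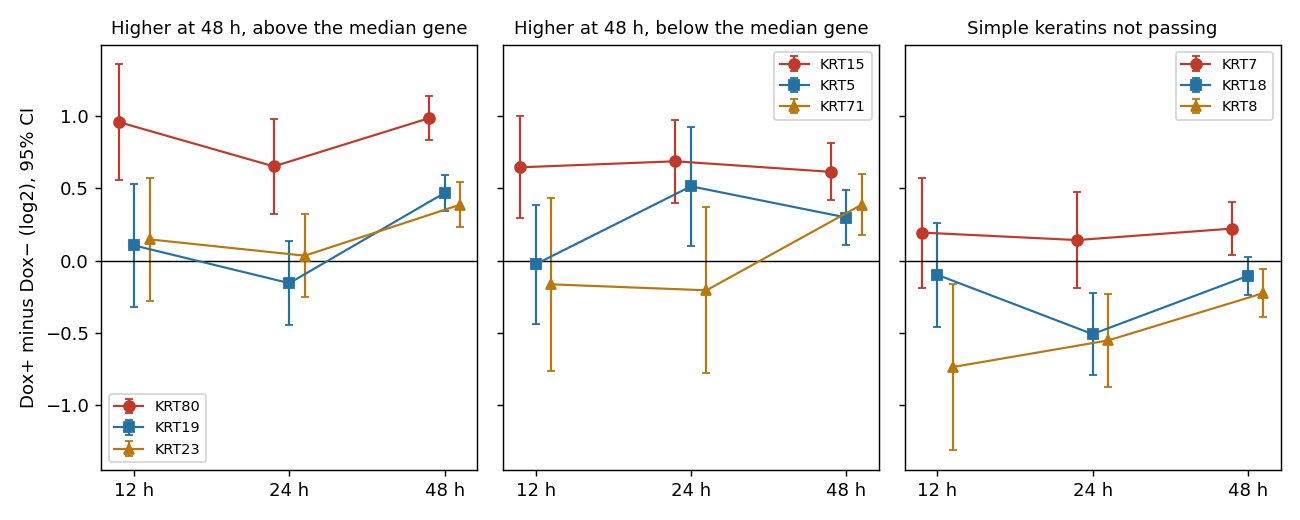
Dox+ minus Dox− on the log2 scale at 12, 24 and 48 h for 9 keratins, with the 95% confidence interval of limma's fit at each time (n = 2, 2 and 3 arrays per group). KRT80 and KRT15 lie above 0 at all times, KRT19, KRT23 and KRT71 are near or below 0 at 24 h and above it at 48 h, and KRT8 and KRT18 lie below 0 at all 3 times.

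Whether the response of a keratin differed between times was tested as an interaction in 1 fit of all 14 arrays, and again with array weights by time point, with a call where both passed. No keratin was called for 48 h against 12 h, where 0.612% of all genes were called toward a higher effect at 48 h and 0.44% toward a lower one. None was called for 48 h against 24 h, with 0.501% and 0.157% of all genes. With equal weights, 633 genes passed for 48 h against 12 h and 134 for 48 h against 24 h, and none of the 44 was among them. At an unadjusted p under 0.05, 9 keratins (20.5%) passed for 48 h against 12 h, beside 20.3% of all genes, and 3 (6.82%) for 48 h against 24 h, beside 12.2% of all genes. The effect on KRT19 at 48 h exceeded that at 24 h by 0.62 ± 0.158 (SE), with an adjusted p of 0.0986 with equal weights and of 0.0493 with weights (limma). KRT80 and KRT15 had effects at 48 h that differed from those at 12 h by 0.03 and −0.03 (adjusted p = 0.947 and 0.927, limma).

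Filaments need both chain types, and 11 of 14 listed type II with type I partners had both genes measured. At 48 h 1 pair, KRT5 with KRT15, had both partners called higher, and at 12 and 24 h there was none. KRT19 rose, while its usual partners KRT8 and KRT7 had −0.22 and 0.22 and did not pass. KRT71 rose, while KRT25, its inner root sheath partner, had 0.05. KRT80 and KRT23 are in none of the 11 pairs.

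The keratin genes lie in 2 clusters, type II with KRT18 on chromosome 12 and the other type I genes on chromosome 17. In RefSeq's order, the 6 genes that rose included 2 sets of neighbours among the keratins, KRT5 beside KRT71 on chromosome 12 and KRT15 beside KRT19 on chromosome 17. KRT80 lies at the end of its cluster beside KRT7, whose 0.22 did not pass, and KRT8 and KRT18, both below 0, stand next to each other at the opposite end. KRT23 lies between KRT20 (−0.22) and a gene not analysed here.

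Genes that work with keratins were taken from 5 lists, and their calls read as follows at 48 h. Of all genes, 11.3% were called higher and 12.9% lower. The shares were 17.5% and 22.8% for genes brighter than the median gene, and 5.07% and 2.93% for the dimmer ones. In the order below, 10 of 12, 1 of 7, 8 of 13, 9 of 18 and 9 of 20 listed genes were brighter than the median gene. Of 12 plakins and desmosomal plaque proteins, which anchor keratin filaments to junctions, 3 rose and 0 fell. PPL (periplakin) rose to 10.53 ± 0.121 in Dox+ cells, against 8.94 ± 0.0326 in Dox− cells (log2 level, SD, n = 3 each), a 3.01-fold difference (adjusted p = 9.001e-07, limma). PPL was also higher at 24 h, by 1.25. EPPK1 (epiplakin), which binds keratin filaments, rose by 0.47 at 48 h and by 1.47 at 12 h (adjusted p = 0.0196, limma), while its 0.30 at 24 h did not pass. DSP (desmoplakin) rose by 0.39. DST (dystonin) did not pass on its brightest probe set, while 2 dimmer ones were higher at 48 h by 1.09 and 0.82 (adjusted p = 1.677e-05 and 5.341e-05, limma). The list's median was 0.11, beside −0.02 over all genes.

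Of 7 desmosomal cadherins, 1 rose, DSG2 of simple epithelia, by 0.21 (adjusted p = 0.0439, limma). Of 13 measured keratin-binding and filament-organising genes, 2 rose and 0 fell. SFN, the 14-3-3σ protein, rose by 0.73 or 1.66-fold, and FAM83H, which directs a kinase to keratin filaments, by 0.36. SFN also rose at 24 h, by 1.23 (adjusted p = 0.00142, limma), and its 2 other probe sets were higher at 48 h by 0.51 and 0.90. FAM83H's other probe set, which was dim, had −0.15 and did not pass.

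The 18 non-keratin intermediate filament genes moved in both directions, 2 up and 4 down. NES (nestin), of progenitor cells, fell by 0.57, and LMNB1 and LMNB2, the B-type lamins of the nuclear envelope, fell by 0.32 and 0.31, while IFFO2, a filament family orphan, rose by 0.59. VIM (vimentin), the filament of mesenchymal cells, was lower at 24 h by 1.13 (adjusted p = 0.00205, limma), and at 48 h had 11.85 ± 0.103 in Dox+ cells and 11.75 ± 0.00557 in Dox− cells, a difference of 0.09 that did not pass. A second, dim NES probe set had −0.42 and did not pass.

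Of 20 measured epithelial transcription factors, 7 rose and 3 fell, with TP73 among those that rose. GRHL1, a grainyhead factor of epithelial junction and keratinocyte genes, rose by 1.19 or 2.29-fold (adjusted p = 2.247e-06, limma), and it had passed at 12 h (1.31) and 24 h (1.09). ZNF750, a factor of terminal keratinocyte differentiation, rose by 1.07 and was dim in both groups. KLF5, a factor of proliferating epithelia, fell by 0.85 at 48 h, while a dimmer KLF5 probe set had −0.11 and did not pass. The list's median was 0.06. For each of the 5 lists the counts are a description, and no test of the list was made.

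Probe sets that name a keratin pseudogene, a keratin antisense transcript or a keratin together with another gene were read separately. There were 7 of these, and none passed at any time. The probe sets of KRT8P12, a KRT8 pseudogene, had differences of −0.21 and −0.03 at 48 h, and KRT10-AS1, antisense to KRT10, had 0.08.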

How the data were processed

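The deposited values were log2 expression levels of 54675 probe sets on 14 Affymetrix arrays, made by the authors with RMA (robust multi-array averaging), for which the submitters' processing notes name R 3.5.1 and the study's methods name BRB-ArrayTools. The methods state that outliers by probe intensity were excluded from analysis. RMA equalises the distribution of probe signals between arrays, so values are relative within this set. The methods name RPMI as medium and the labels DMEM. Probe sets were named from the platform annotation: 41091 named 1 gene, 1801 several and 11721 none, and 62 controls were left out.

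The brightest probe set stood for each gene. limma 3.58.1 (R 4.3.3) was run within each time point on all 19775 genes, with Benjamini-Hochberg adjustment and a threshold of 0.05, without a block. The procedure was tested on simulated data. Precision is limited by the number of arrays, 2 or 3 a group. Per-array values are given for keratins called at any time and for KRT7, KRT8, KRT18 and KRT19, and from each other list up to 4 called genes with the largest difference at 48 h. Other genes (among them KRT10, KRT14, DCN, DST and VIM) were named after their values were seen. The members and lists were chosen with earlier results of these data known. The classes, partners and lists come from textbook knowledge. Promoter windows and gene order are from RefSeq (GRCh38.p14), and the arrays' own files name no genome build. Alternatives were another probe set per gene, every probe set alone, dim genes or shared probe sets left out, quantile normalization, and trend and robust. Array weights, 1 fit of all arrays, a replicate block, Student's t-test and each array left out were further alternatives.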

Additional observations from a re-analysis of the deposited data

Results flagged for a closer look

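In 5 keratins every Dox+ array lay on one side of every Dox− array at 1 time and on the opposite side at the next. Between 12 and 24 h these were KRT25 (−0.13 and 0.12 on the log2 scale), KRT73 (−0.41 and 0.27) and KRT78 (−0.31 and 0.16), and the difference between these times was not tested. The 3 amount to 6.82% of the keratins, against 9.11% of all genes. Between 24 and 48 h they were KRT19 (−0.16 and 0.47) and KRT4 (0.11 and −0.15), or 4.55% against 3.7% of all genes. There the difference between times was tested by limma and did not pass with equal weights, with an adjusted p of 0.0986 for KRT19 and 0.446 for KRT4.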

How the results depend on the processing

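Of 360 recomputed values for 27 gene-by-time differences, 323 kept their direction where called and their side of the threshold, 18 lost the call, 19 gained one and 0 reversed. A value not called at first counted as kept even where its sign changed, if it stayed uncalled. KRT7 at 12 h, for example, had 0.19 and, with the probe set of largest interquartile range, −0.42. KRT80, KRT19, KRT15 and KRT23 at 48 h passed under every alternative run. KRT5 at 48 h lost its call in 7 of 14 alternatives and KRT71 in 3 of 14. The count higher at 48 h ranged between 4 and 6. With 1 array left out it ranged between 5 and 6, beside 9.05% to 9.99% of all genes higher.

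In 1 fit of all 14 arrays, 2 keratins were higher and 4 lower at 12 h and 1 lower at 24 h (KRT18), in place of 0, beside 5.26%, 3.25% and 6.08% of all genes. Of the 7 keratins left without dim genes, 1 was higher and 2 lower at 24 h, beside 6.87% and 9.8% of all genes left. At 48 h 4 were higher (KRT80, KRT19, KRT23 and KRT7), or 57.1% against 21.6%, and 1 was lower (KRT8), against 29.3%. Trend and robust options gave 2 lower at both 24 and 48 h (KRT8 and KRT18), beside 6.44% and 15.3% of all genes. Choosing probe sets by interquartile range gave 1 lower at 48 h (KRT73), and quantile normalization 1 (KRT72), beside 11.2% and 12.9% of all genes. The methods name Student's t-test for the study in general and a class comparison for the arrays. That t-test, run here with Benjamini-Hochberg adjustment, called 0 keratins higher at 24 h. It also called 0 of all 19775 genes higher and 0 lower there, so it could not single out the keratins. Quantile normalization changed the split of all genes at 24 h to 638 higher and 348 lower, against 596 and 556. A threshold of 1.5-fold, with no test, gave 2 higher (KRT15 and KRT80) at each of 12, 24 and 48 h, in place of 0 at 2-fold. It gave 1 lower at 12 h (KRT8), also in place of 0. At 12 h 622 of all 19775 genes were 1.5-fold higher and 264 lower. The counts of all genes at 24 and 48 h are not given here, so these keratin counts are no result about the family. Array weights called 1 keratin (KRT19) for 48 h against 24 h. The share of all genes called with the weights alone is not given here, so this count is no result about the family. With 1 array left out at 48 h, the count lower ranged between 0 and 1. The keratins were KRT20, KRT72 and KRT3 without Dox+ replicate 1, 2 and 3, beside 9.69%, 10.1% and 11.6% of all genes lower. Which keratins passed for 48 h against 12 h depended on the Dox+ 12 h array left out, and 1 array then remained in that group. Whether KRT19 passed for 48 h against 24 h also varied with the array left out. Where 1 array remained in a group, it was assumed to vary like the others. The cause of these changes was not tested.

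Same-numbered replicates did not qualify as pairs, with correlations of deviations of 0.255 at 12 h, −0.1102 at 24 h and between 0.0892 and 0.1092 at 48 h. At 48 h each array correlated best with its own number, a hint from the data and not the design. With 2 arrays a group the deviations mirror each other, so 12 h and 24 h each gave 1 number, of opposite sign. A replicate block gave 1 keratin higher (KRT80) and 1 lower (KRT8) at 12 h and 1 lower (KRT8) at 48 h, beside 1.95%, 0.425% and 12.6% of all genes, and 5 higher at 48 h. With the numbers crossed at 24 h, chosen after seeing the data, 2 keratins were higher and 2 lower, and 815 of all genes were lower. Most keratins (37 of 44) were no brighter than the median gene, and signal over background could not be judged without detection calls.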
